A study of Mus musculus with 4 samples.

Results

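*CXCL-12* and *CXCR4*, a chemokine ligand and its receptor, were 2 of the 98 genes measured by RT-qPCR in whole mouse lungs, and were taken as named in the study's gene table. The 2 genes moved apart. With the mean of both housekeeping assays as reference, *CXCL-12* mRNA was higher and *CXCR4* mRNA lower than in untreated lungs after S100A8 alone, with LLC cancer alone and with both together, and the changes were smallest with both. Female C57BL/6J mice, 6 to 8 weeks old, were injected in the lung with Lewis lung carcinoma (LLC) cells, a mouse cancer cell line, or with vehicle, each mixed with Matrigel. Recombinant mouse S100A8 (10 µg) or HBSS, the salt solution that carried it, was given intranasally on Days 3, 6 and 9, and lungs were harvested on Day 10. The 4 groups were untreated lungs (HBSS + vehicle), lungs with S100A8 alone (S100A8 + vehicle), lungs with LLC alone (HBSS + LLC) and lungs with both (S100A8 + LLC), and every group had the lung injection and the intranasal fluid in common. The authors averaged 4 to 5 mice per group before deposit, so each group is 1 value per gene, and no SD, n or test between groups could be computed.

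CXCL-12, also called SDF-1, is a chemokine made constitutively by stromal and endothelial cells. It binds CXCR4, a G protein-coupled receptor on lymphocytes, myeloid cells, blood progenitors and many cancer cells, and the pair retains cells in the bone marrow and draws them into tissues. In the lung, the pair is known for guiding leukocytes and CXCR4-bearing tumour cells. Whole lung RNA mixes all of these cells, so that fewer cells of a type and less RNA per cell cannot be told apart, and RNA of the implanted cells is part of both LLC groups.

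The mouse gene Cxcl12 lies at chr6:117168535-117181368 and Cxcr4 at chr1:128588199-128592299 in the RefSeq annotation of GRCm38.p6. Both genes matched an entry of the RefSeq promoter sequences. The 100 bases before each annotated start are shown because the hypoxia pathway, which can induce both genes, is on the panel. Capitals mark matches, on either strand, to the GC box GGGCGG, to the TATA box TATAAA and to the core letters ACGTG or GCGTG that hypoxia-inducible factors (HIF) recognise. The first stretch is chr6:117168435-117168534 on the + strand, and the second is chr1:128592300-128592399 on the - strand, both written 5′ to 3′ in the direction of the gene.
Cxcl12: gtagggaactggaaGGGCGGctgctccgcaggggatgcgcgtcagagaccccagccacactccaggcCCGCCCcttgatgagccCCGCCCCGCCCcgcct
Cxcr4: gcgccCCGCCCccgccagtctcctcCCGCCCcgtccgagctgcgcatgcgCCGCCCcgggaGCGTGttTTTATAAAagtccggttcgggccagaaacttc

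The stretch before Cxcl12 held GC boxes starting 86, 33, 16 and 11 bases before the start, and neither of the other motifs. The stretch before Cxcr4 held GC boxes at 95, 75 and 50 bases, a HIF core at 39 bases, and a TATA box at 30 bases that overlaps a match on the other strand at 32 bases. In the same window, 24.7% of the 32851 RefSeq promoters held a GC box, 21.9% a HIF core and 5.56% a TATA box. GC content was 73% before Cxcl12 and 69% before Cxcr4. These matches describe the letters only.

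RT-qPCR gives each transcript a threshold cycle (Ct), the cycle at which its signal is first detected, so that each cycle less means roughly a doubling of template. The mean Ct of *CXCL-12* was 24.04 in untreated lungs, 23.57 with S100A8 alone, 21.93 with LLC alone and 24.17 with both. It was lowest, meaning most template, in HBSS + LLC, and the other 3 groups lay close together. The mean Ct of *CXCR4* was 18.23 in untreated lungs, 20.68 with S100A8 alone, 19.15 with LLC alone and 20.07 with both. Untreated lungs had the lowest Ct of this gene, and both groups given S100A8 the highest. Both genes were detected far below the cut off of 38 cycles.

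**Figure D1:**
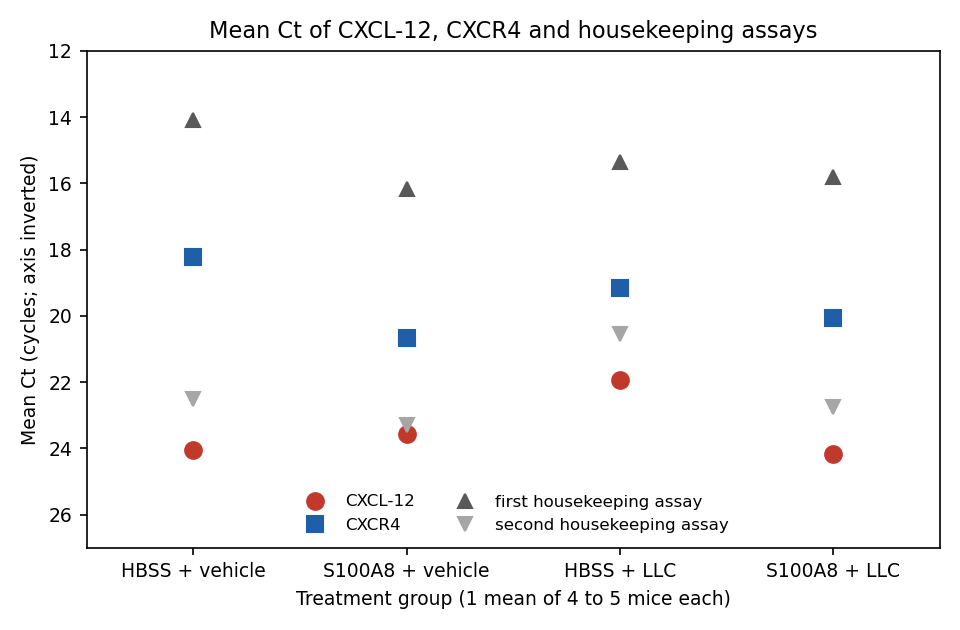
Mean Ct in cycles (inverted axis, so that more template is higher) of *CXCL-12*, *CXCR4* and the 2 housekeeping assays in the 4 groups, each point being 1 mean of 4 to 5 mice. The first housekeeping assay was at 14.09 in HBSS + vehicle and between 15.35 and 16.17 elsewhere, while the second was at its lowest Ct, 20.56, in HBSS + LLC.

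The study normalized to β-actin and β2M, and the 2 assays that matched no panel gene were taken as these. They did not move alike. Compared with HBSS + vehicle, the first rose by 2.08 cycles with S100A8 alone, 1.26 with LLC alone and 1.73 with both. The second rose by 0.80 and 0.25 cycles in the S100A8 groups, but in HBSS + LLC it fell by 1.94 cycles. Fold changes below use the mean Ct of both assays. Taking the first assay by itself would add 0.64 with S100A8 alone, 1.60 with LLC alone and 0.74 with both to every gene's log2 change against untreated lungs, and taking the second would remove as much. Between S100A8 + LLC and HBSS + LLC the first would remove 0.86 and the second add it. Values by each assay are given for *CXCL-12* and *CXCR4*. For other genes the housekeeping mean is used unless stated, and a change smaller than these shifts has no direction that all references share.

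After subtraction of the housekeeping mean, *CXCL-12* stood at 5.75 cycles in untreated lungs, 3.84 with S100A8 alone, 3.98 with LLC alone and 4.89 with both. HBSS + vehicle thus had the lowest level and S100A8 + LLC the next lowest, and both places in the order held with each of the other 3 references tried, namely either assay alone or the panel median of the 98 genes. The other 2 groups changed places with the reference. *CXCR4* stood at -0.07 cycles in untreated lungs, 0.95 with S100A8 alone, 1.20 with LLC alone and 0.79 with both. HBSS + vehicle had the highest level, except with the first housekeeping assay alone, where HBSS + LLC was higher (3.80 against 4.14 cycles). Without a spread between mice, it is not known which neighbours in these orders differ.

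S100A8 in lungs without cancer was compared with HBSS to ask what the protein does on its own. *CXCL-12* mRNA was 3.76-fold higher in S100A8 + vehicle than in HBSS + vehicle, and between 2.41-fold and 5.86-fold higher over the other references. Of the 97 panel genes with a value, 45.4% changed by more than 2-fold and 27.8% were more than 2-fold higher, and *CXCL-12* ranked 16 from the top, between *IL-4* (4.59-fold or more) and *ALOX12* (3.07-fold). *CXCR4* mRNA was 2.01-fold lower, just past the threshold, where 17.5% of the genes were more than 2-fold lower. It ranked 17 from the bottom, next to *GPX1* at 0.511-fold, just inside the threshold, and *IL-23* at 0.483-fold. The first housekeeping assay alone gave 1.29-fold lower *CXCR4*, and the second 3.14-fold lower. Changes of this size were thus common on the panel.

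LLC cancer without S100A8 was compared with untreated lung in the same way, and shares its control group with the comparison above. In HBSS + LLC, *CXCL-12* was 3.41-fold higher and ranked 21 of 98, where 48% of the genes passed 2-fold and 26.5% were more than 2-fold higher. This value moved with the reference, the first housekeeping assay giving 10.3-fold and the second 1.13-fold. *CXCR4* was 2.39-fold lower and ranked 18 from the bottom, where 21.4% of the genes were more than 2-fold lower. The first housekeeping assay gave 1.27-fold higher *CXCR4* and the second 7.26-fold lower. The direction of *CXCR4* here therefore rests on the reference, whereas *CXCL-12* was higher under all 4.

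In S100A8 + LLC, *CXCL-12* was 1.82-fold and *CXCR4* 0.555-fold of HBSS + vehicle, both within 2-fold, where 40.8% of the panel passed 2-fold, 22.4% being more than 2-fold higher and 18.4% lower. *CXCL-12* lay between 1.09-fold and 3.03-fold over the other references. *CXCR4* was lower under each of them, by 1.08-fold when the first housekeeping assay was the reference and by 3.01-fold when the second was.

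**Figure D2:**
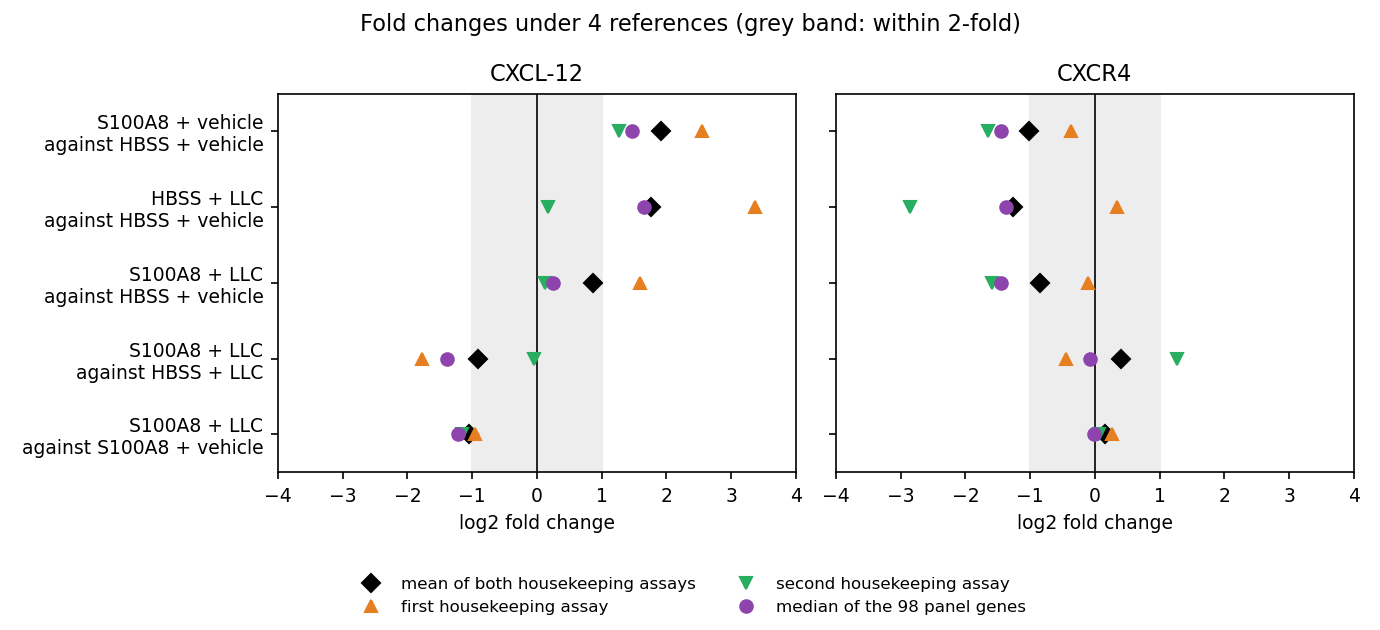
Log2 fold changes of *CXCL-12* (left) and *CXCR4* (right) in the 5 comparisons, each point being the value with 1 of 4 references and the grey band marking changes within 2-fold. *CXCL-12* kept its side of 0 in every comparison, and *CXCR4* crossed 0 in 3 of the 5, reaching 0.34 by the first housekeeping assay in HBSS + LLC against HBSS + vehicle.

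The effect of S100A8 in cancer-bearing lungs was read from S100A8 + LLC against HBSS + LLC. *CXCL-12* was 1.88-fold lower, within the threshold, and ranked 18 from the bottom of 98. In this comparison 26.5% of the genes passed 2-fold, 15.3% being lower and 11.2% higher. The decrease in *CXCL-12* was 3.41-fold by the first housekeeping assay, 2.63-fold by the panel median and 1.04-fold by the second assay. *CXCR4* was 1.33-fold higher, but 1.37-fold lower by the first assay and 2.41-fold higher by the second. No direction can be given for it.

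The effect of LLC cancer in S100A8-treated lungs was read from S100A8 + LLC against S100A8 + vehicle, where the 2 housekeeping assays moved nearly alike. *CXCL-12* was 2.07-fold lower, where 41.8% of the genes passed 2-fold and 29.6% were more than 2-fold lower, and 1.93-fold to 2.33-fold lower over the other references. *CXCR4* differed by 1.12-fold, and 12.2% of the panel was more than 2-fold higher. LLC cancer thus went with more *CXCL-12* in lungs given HBSS and with less in lungs given S100A8.

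The ratio of ligand to receptor mRNA needs no housekeeping reference, because the same correction enters both genes of a group. The Ct of *CXCR4* minus that of *CXCL-12* was -5.81 cycles in untreated lungs, -2.89 with S100A8 alone, -2.78 with LLC alone and -4.10 with both. Primer pairs differ in efficiency, so only changes of this difference between groups are read. S100A8 alone and LLC alone shifted it by nearly the same amount, and the combination lay between them and untreated lung.

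Relative to HBSS + vehicle, the *CXCL-12* to *CXCR4* ratio rose 7.57-fold with S100A8, 8.17-fold with LLC and 3.27-fold with both. These 3 values share 1 control group. Among the ratios of all pairs of panel genes, 65.2%, 70% and 62.1% changed by more than 2-fold in the same comparisons, and 28.0%, 32.0% and 43.3% changed by more than this pair did. With both, the ratio stood 2.50-fold under that with LLC alone and 2.31-fold under that with S100A8 alone, where 47% and 53.1% of all pairs passed 2-fold. A change of this size is thus common among pairs on the panel. The direction of these values cannot turn with the choice of reference, as that of *CXCR4* by itself did. Nor can their size move with it, as that of *CXCL-12* by itself did.

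S100A8 moved the ratio up in lungs without cancer and down in lungs with it. The log2 change was 2.92 without LLC and -1.32 with LLC, a difference of -4.24. Of the 4656 gene pairs, 25.6% had a larger difference. *CXCL-12* by itself changed by 1.91 without LLC and by -0.91 with LLC, and it went opposite ways under each of the 4 references, although by the second housekeeping assay the change with LLC was only -0.05. *CXCR4* changed by -1.01 and 0.41. By the first housekeeping assay its changes were -0.37 and -0.45, and by the panel median -1.45 and -0.08, both downward. An opposite direction by itself was frequent, being found for 59.8% of the 97 genes.

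**Figure D3:**
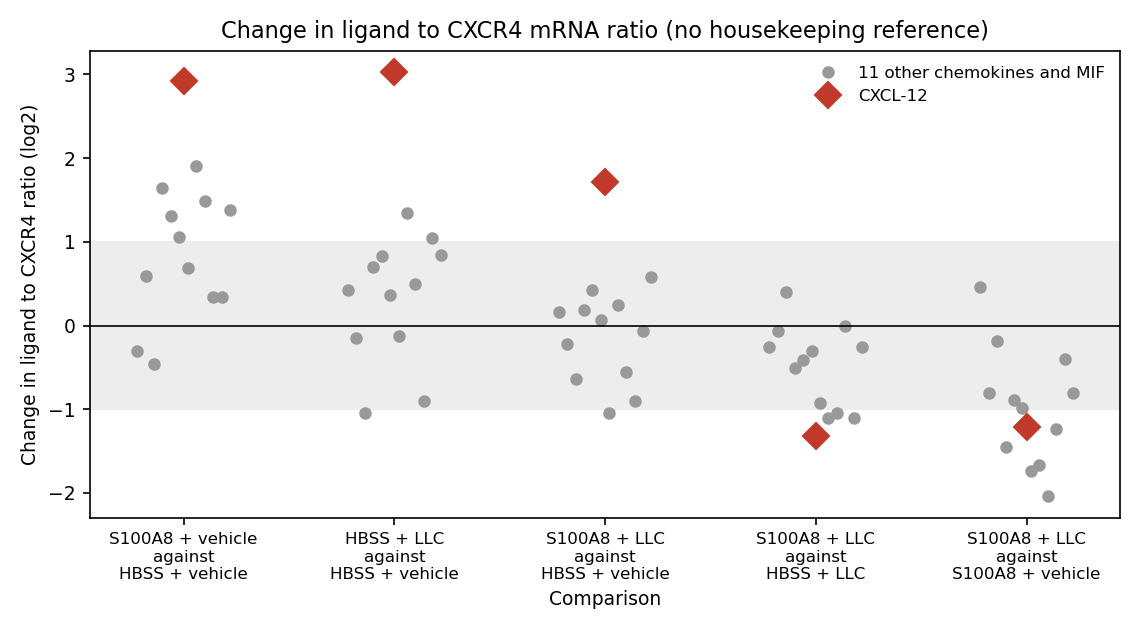
Change in the ratio of each chemokine, or MIF, to *CXCR4* (log2, no housekeeping reference) in the 5 comparisons, with *CXCL-12* as diamonds, the other 12 ligands as grey points and the grey band marking changes within 2-fold. *CXCL-12* lay above all 12 others in the 3 comparisons with HBSS + vehicle, at 2.92, 3.03 and 1.71, and below all 12 in S100A8 + LLC against HBSS + LLC, at -1.32.

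The panel holds 11 other chemokines, and the order among them needs no reference either. *CXCL-12* had the highest fold change of the 12 in each of the 3 comparisons with HBSS + vehicle. In S100A8 + vehicle the next was *CXCL-10*, an interferon-induced ligand of CXCR3, at 1.87-fold. The same gene came next in HBSS + LLC at 1.06-fold. In S100A8 + LLC the next was *CCL-4* at 0.742-fold, so that *CXCL-12* was the only chemokine above HBSS + vehicle there with the housekeeping mean as reference. The fold change of *CXCL-12* exceeded the median of the other 11 chemokines 4.69 times with S100A8, 6.11 times with LLC and 3.41 times with both.

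Between S100A8 + LLC and HBSS + LLC the order turned over. *CXCL-12* had the lowest value of the 12, at -0.91 on the log2 scale, while the other 11 had a median of 0 and ranged from -0.70 for *CXCL-9* to 0.81 for *CCL-2*, which attracts monocytes. In S100A8 + LLC against S100A8 + vehicle *CXCL-12* ranked 7 of 12. The S100A8 effect with LLC minus that without was -2.82 for *CXCL-12*, lower than for each of the other 11, which ran from -1.59 for *CXCL-10* to 2.28 for *CCL-2* around a median of -0.03.

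None of the other 11 chemokines was more than 2-fold higher in any of the 5 comparisons by the housekeeping mean. Of the panel, 27.8%, 26.5% and 22.4% were higher against HBSS + vehicle with S100A8 alone, LLC alone and both. In S100A8 + LLC, 11.2% were higher against HBSS + LLC and 12.2% against S100A8 + vehicle. Against HBSS + vehicle, 2 of the 11 chemokines were more than 2-fold lower with S100A8 alone, 4 with LLC alone and 5 with both (18.2%, 36.4% and 45.5% of the 11, beside 17.5%, 21.4% and 18.4% of the panel). *CCL-2* was among them each time, at -1.47, -2.30 and -1.49 on the log2 scale. The median of the 11 was -0.32, -0.84 and -0.91, beside 0.34, -0.19 and -0.22 for the whole panel. These counts moved with the reference, from 0 to 5, 0 to 11 and 2 to 11, and the panel's share lower moved with them, from 11.3% to 30.9%, 4.08% to 63.3% and 8.16% to 48.0%. By the first housekeeping assay 3 chemokines were more than 2-fold higher in S100A8 + vehicle and 4 in HBSS + LLC, beside 49.5% and 62.2% of the panel.

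**Figure D4:**
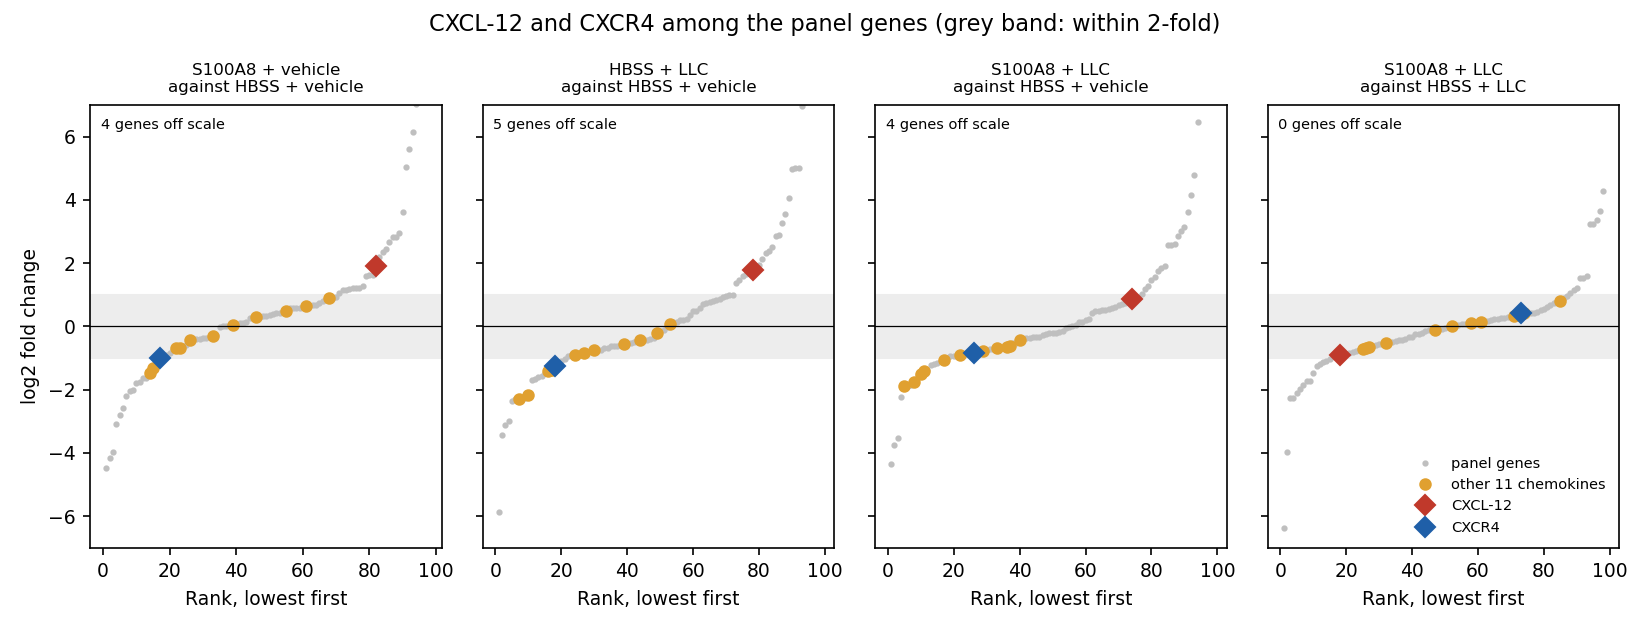
Log2 fold changes of the panel genes in rank order, lowest first, in 4 comparisons, with *CXCL-12*, *CXCR4* and the other 11 chemokines marked and the grey band marking changes within 2-fold; genes beyond 7 either way are counted in the corner. *CXCL-12* stood above the chemokines in the first 3 panels and below them in the fourth.

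The study's table puts both genes in its group for recruitment of myeloid-derived suppressor cells (MDSC), immature myeloid cells that suppress T cells, together with 12 other assays. Of these 12, none was more than 2-fold higher with S100A8 alone and 3 were lower. With LLC alone 1 was higher and 3 were lower, and with both none was higher and 6 were lower. As shares of the 12, 25%, 25% and 50% were lower, beside 17.5%, 21.4% and 18.4% of the panel, and 0%, 8.33% and 0% were higher, beside 27.8%, 26.5% and 22.4%. These counts moved with the reference. By the first assay 5 were higher and 2 lower with S100A8 alone (49.5% and 11.3% of the panel), 6 higher and 0 lower with LLC alone (62.2% and 4.08%), and 0 higher and 3 lower with both (37.8% and 8.16%). By the second 4, 11 and 11 were lower, beside 30.9%, 63.3% and 48.0% of the panel. The higher one by the housekeeping mean was *IL-12β*, a subunit of interleukin-12, at 2.86 on the log2 scale in HBSS + LLC. The log2 change of *CXCL-12* exceeded that of all 12 in S100A8 + vehicle and S100A8 + LLC.

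Of the 14 panel genes listed for their known ties to the pair, 2 were more than 2-fold higher and 3 lower with S100A8 alone, 2 higher and 4 lower with LLC alone, and 2 higher and 2 lower with both, around medians of 0.07, -0.29 and -0.15 on the log2 scale. The share higher was 14.3% each time, beside 27.8%, 26.5% and 22.4% of the panel, and the shares lower were 21.4%, 28.6% and 14.3%, beside 17.5%, 21.4% and 18.4%. With LLC alone, 8 were higher and 0 lower by the first assay (62.2% and 4.08% of the panel), and 1 was higher and 10 lower by the second (14.3% and 63.3%). With S100A8 alone, 5 were higher and 2 lower by the first (49.5% and 11.3%), and 1 was higher and 5 lower by the second (16.5% and 30.9%). With both, 3 were higher and 2 lower by the first (37.8% and 8.16%), and 0 were higher and 7 lower by the second (16.3% and 48.0%). *MIF*, a cytokine that also binds CXCR4, was at 0.37, -0.42 and -0.27 on the log2 scale, within 2-fold, but with LLC alone it was at 1.18 by the first assay and -2.02 by the second. Its ratio to *CXCR4*, which needs no reference, changed by 1.38, 0.84 and 0.58, less than that of *CXCL-12* in each comparison. In S100A8 + LLC against HBSS + LLC it changed by -0.26.

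Among the matrix metalloproteinases, which can cut and inactivate CXCL-12, *MMP-9* was at 2.82 on the log2 scale with S100A8 alone, 0.76 with LLC alone and 1.19 with both. *MMP-2* was at -1.24 in HBSS + LLC, but at 0.36 by the first assay, and at -0.03 in both S100A8 groups. *MMP-3* and *MMP-13* lay between -0.40 and 0.82 by the housekeeping mean. With LLC alone they were at 1.44 and 2.42 by the first assay and at -1.76 and -0.78 by the second. *MMP-9* with LLC alone was at 2.36 by the first and -0.84 by the second, and *MMP-2* at -2.84 by the second.

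The hypoxia genes did not share 1 pattern. *VEGFα*, the angiogenic factor, was at 1.14 with S100A8 alone, 2.32 with LLC alone and 0.48 with both on the log2 scale. In S100A8 + LLC against HBSS + LLC it was at -1.84, with *HIF-1α* at -2.27, *HIF-2α* at -1.47 and *HIF-1β* at 1.59. *HIF-1α*, the oxygen-regulated subunit, was at 0.12, 3.54 and 1.27, with mean Ct values between 31.2 and 36.4. *HIF-1β*, its partner subunit, was at -4.49, -2.27 and -0.68, and *HIF-2α* at -4.15, -2.29 and -3.76, likewise from Ct values mostly above 30.

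Among the signalling and adhesion genes, *LCK*, a T cell kinase, was at -1.63, -2.37 and -1.86 on the log2 scale, and with LLC alone at -0.77 by the first assay, its mean Ct being 20.8 in untreated lungs, 23.8 with S100A8, 22.8 with LLC and 23.6 with both. The other T cell marker, the cytokine *IL-2*, was detected only at 35.68 cycles or later, stood at the cut off of 38 cycles with S100A8 alone, and was at 0.33 or less, 0.87 and 1.91 on the log2 scale. With LLC alone it was at -0.73 by the second assay. *CXCR4*, which T cells carry, moved the same way as *LCK* against HBSS + vehicle with the housekeeping mean as reference. In S100A8 + LLC the 2 were at 0.41 and 0.51 against HBSS + LLC, but at 0.16 and -0.23 against S100A8 + vehicle. The part of *LCK*-bearing cells in the changes of *CXCR4* was not tested. *VCAM-1*, *STAT3* and *NF-κB* lay between -0.92 and 0.58 by the housekeeping mean. With LLC alone, *VCAM-1* was at 1.80 by the first assay and -1.40 by the second. *STAT3* and *NF-κB* were then at 0.73 and 0.93 by the first and at -2.47 and -2.27 by the second.

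Markers of cell types were measured in the same lungs. *AGER* and *RAGE*, 2 assays of the alveolar epithelial gene Ager, had mean Ct values between 16.1 and 18.1, below the panel medians, which ran from 23.35 to 24.8. Of 13 marker assays, 3 were more than 2-fold higher and 2 lower in S100A8 + vehicle, 2 higher and 3 lower in HBSS + LLC, and 3 higher and 2 lower in S100A8 + LLC. With S100A8 alone these are 23.1% and 15.4% of the markers, beside 27.8% and 17.5% of the panel, with LLC alone 15.4% and 23.1%, beside 26.5% and 21.4%, and with both 23.1% and 15.4%, beside 22.4% and 18.4%. With LLC alone 9 were higher and 1 lower by the first assay and 1 higher and 9 lower by the second, near those same panel shares of 62.2% and 4.08%, and of 14.3% and 63.3%. With S100A8 alone 7 were higher and 1 lower by the first (49.5% and 11.3% of the panel), and 1 higher and 3 lower by the second (16.5% and 30.9%). With both, 5 were higher and 2 lower by the first (37.8% and 8.16%), and 3 higher and 5 lower by the second (16.3% and 48.0%). The summed marker level by the housekeeping mean, on the log2 scale, was 3.70 in untreated lungs, 4.46 with S100A8 alone, 3.98 with LLC alone and 3.56 with both. This sum adds levels across primer pairs and counts Ager by 2 assays, so the markers with the lowest Ct carry most of it. The shift of 1.60 with LLC alone by either housekeeping assay is larger than any distance between these sums. Their order therefore moves with the reference. The epithelial markers did not move together. Against HBSS + vehicle, the cadherin *CDH1* was at 5.03, 4.07 and 3.62, *MUC1* at 0.58, -0.53 and -0.87 and *AGER* at 0.87, -0.74 and -0.85. The basal cell keratin *KRT5* was at -3.10, -3.11 and -2.22, while *KRT14*, a keratin listed with it, was at 0.01, -1.68 and 2.61. The genes of neutrophils and other myeloid cells did not move together either. *S100A8* was at 1.20, 0.15 and 0.81, *S100A9* at 1.06, -0.38 and -0.93 and *NOX2* at 0.67, 0.70 and -0.25. *MKI67*, a marker of dividing cells, was at -0.39, -0.46 and -0.21. The caveolin *CAV1*, a marker of endothelial and alveolar type I cells, was at -0.36, 1.47 and 0.59. In S100A8 + LLC against HBSS + LLC, where *CXCL-12* was at -0.91, *NOX2* was at -0.95, *CAV1* at -0.88, *AGER* at -0.11 and *RAGE* at 0.17. *CAV1* was at -1.74 by the first assay and at -0.02 by the second. By the housekeeping mean 2 of the 13 markers were more than 2-fold higher there and none lower, beside 11.2% and 15.3% of the panel. The 2 were *KRT14* at 4.29 and *IL-2* at 1.04. By the first assay 1 marker was higher and 5 were lower there (5.10% and 44.9% of the panel), by the second 7 and 0 (39.8% and 6.12%), and by the panel median 1 and 3 (8.16% and 32.7%). In S100A8 + LLC against S100A8 + vehicle, where *CXCL-12* was 2.07-fold lower, 2 markers were higher (15.4%, beside 12.2% of the panel). In the same comparison 5 were lower (38.5%, beside 29.6% of the panel). The 5 were *AGER* at -1.72, *RAGE* at -1.12, *CDH1* at -1.41, *MUC1* at -1.45 and *S100A9* at -1.99. The part of cell composition in the changes of *CXCL-12* and *CXCR4* was not tested.

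Likeness to each gene was measured over the 4 groups as the root mean square difference in Ct after each gene's own mean was taken off, which needs no housekeeping reference. Nearest to *CXCL-12* among 97 genes were *ALOX12*, a lipoxygenase, at 0.228 cycles, *CDKN1A*, the cell cycle inhibitor p21, at 0.274, *CAT*, catalase, at 0.319, *HO-1*, heme oxygenase, at 0.391, and *GSTM*, a glutathione transferase, at 0.393. None of these is a chemokine. Nearest to *CXCR4* were *IGF-1* at 0.110 cycles, *IL-23* at 0.141, *SMAD4* at 0.237, *HGF* at 0.243 and the eosinophil chemokine *CCL-11* at 0.261. *IGF-1* and *HGF* encode growth factors. *CXCL-12* and *CXCR4* were 1.22 cycles apart, and *CXCR4* ranked 66 of 97 in likeness to *CXCL-12*. With 4 averaged values per gene, these distances are a description.

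**Figure D5:**
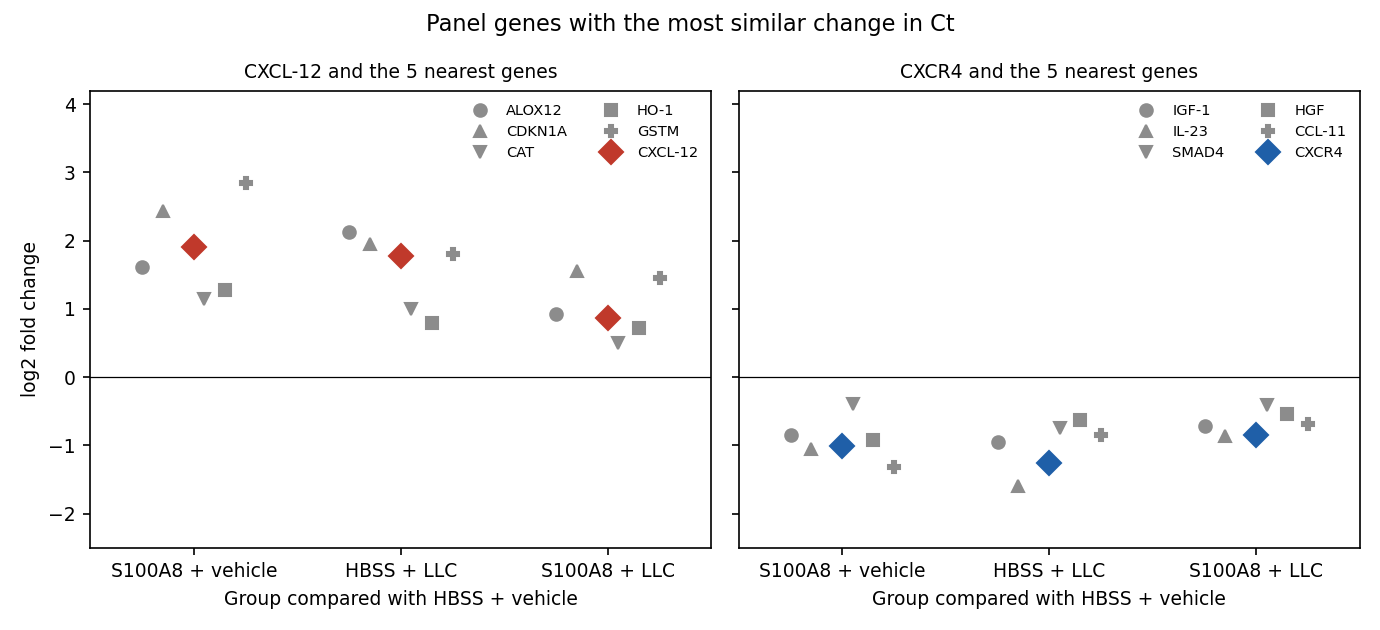
Log2 fold changes against HBSS + vehicle of *CXCL-12* (left) and *CXCR4* (right), shown as diamonds, with the 5 panel genes whose mean Ct changed most alike over the 4 groups, shown in grey and spread sideways for legibility. The *CXCL-12* set lay between 0.50 and 2.84 in all 3 groups, and the *CXCR4* set between -1.60 and -0.39.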

How the data were processed

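Lung RNA (1.5 µg) was reverse-transcribed and amplified with SYBR Green on an array of 98 genes and 2 housekeeping genes. The authors averaged the Ct values of 4 to 5 mice and deposited 1 mean Ct per group and assay, a cycle score that is not normalized. The authors' deposited fold changes, each a ratio to HBSS + vehicle, were used only as a key. All 98 genes matched 1 numbered assay at the fold changes printed for the 3 other groups in the study's gene table, with a largest difference of 0.000269%, and the groups of the numbered columns were taken from the same match. The 2 assays left over were taken as the housekeeping genes. Primer positions are not given in the sources used here.

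The mean Ct of both housekeeping assays was subtracted from each Ct, and the difference between groups, with its sign turned, was taken as the log2 fold change. Genes were called beyond 2-fold. Folds involving 38 cycles in 1 group are bounds, and a gene at 38 cycles in both groups was left out. Alternatives were either housekeeping assay alone, the median of the panel genes, Ct capped at 35, a factor of 1.9 per cycle, and thresholds of 1.5-fold and 3-fold. The members and gene lists were chosen with earlier results of these data known. The genes named are the 2 members, the other chemokines, the 14 genes tied to the pair (1 of them is not reported here by itself), the cell type markers, the 5 nearest genes of each member and the neighbours in rank. Functions were tested on simulated Ct values. Python 3.11.15, numpy 2.4.6, pandas 2.3.3 and matplotlib 3.10.9 were used.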

Additional observations from a re-analysis of the deposited data

Results flagged for a closer look

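By the housekeeping mean, 3 quantities moved one way with S100A8 in cancer-free lungs and the other way in cancer-bearing lungs. As each group is 1 averaged value, the difference was not tested. The effect with LLC minus the effect without was -2.82 on the log2 scale for *CXCL-12*, 1.42 for *CXCR4* and -4.24 for the *CXCL-12* to *CXCR4* ratio. The opposite directions held under all 4 references for *CXCL-12*, and the ratio needs none. For *CXCR4* they were found with the housekeeping mean and with the second housekeeping assay alone, but not with the first alone or with the panel median.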

How the results depend on the processing

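No paired analysis was possible because each group has 1 averaged value, and for the same reason no replicate could be left out. Capping Ct at 35 could not move either gene, since both lie below 35 in every group, and is not counted here. Of the other alternatives, 25 of 34 for *CXCL-12*, 21 of 34 for *CXCR4* and 14 of 16 for the ratio kept both direction and call. The others follow as log2 values. With the first housekeeping assay alone, *CXCL-12* was 1.60 in S100A8 + LLC against HBSS + vehicle, -1.77 against HBSS + LLC and -0.95 against S100A8 + vehicle. *CXCR4* was then -0.37 in S100A8 + vehicle and turned to 0.34 in HBSS + LLC, to -0.45 in S100A8 + LLC against HBSS + LLC, and to -0.08 for the S100A8 effect with LLC minus that without. With the second alone, *CXCL-12* fell to 0.17 in HBSS + LLC, and *CXCR4* was -1.59 in S100A8 + LLC against HBSS + vehicle and 1.27 against HBSS + LLC. With the panel median, *CXCL-12* was -1.395 in S100A8 + LLC against HBSS + LLC, and *CXCR4* was -1.455 against HBSS + vehicle, -0.075 against HBSS + LLC and -0.01 against S100A8 + vehicle. With a factor of 1.9 per cycle, *CXCL-12* was -0.97 in S100A8 + LLC against S100A8 + vehicle and *CXCR4* -0.94 in S100A8 + vehicle. At 1.5-fold, *CXCL-12* in S100A8 + LLC passed at 0.86 against HBSS + vehicle and -0.91 against HBSS + LLC, and *CXCR4* at -0.85 against HBSS + vehicle. At 3-fold, calls were lost for *CXCL-12* at -1.05, for *CXCR4* at -1.01 and -1.26, and for the ratio at -1.32 and -1.21. Of the other 11 chemokines, 2, 4 and 5 were more than 2-fold lower with S100A8 alone, LLC alone and both, against 0, 0 and 2 by the first assay (11.3%, 4.08% and 8.16% of the panel) and 5, 11 and 11 by the second (30.9%, 63.3% and 48.0%). In S100A8 + LLC against HBSS + LLC none was called, against 4 lower by the first (44.9% of the panel), 4 lower by the panel median (32.7%) and 4 higher by the second (39.8%). Counts of the MDSC recruitment genes, the genes tied to the pair and the markers, a check chosen after seeing the data, moved alike. With LLC alone, 3, 4 and 3 were lower by the mean (21.4% of the panel), 0, 0 and 1 by the first assay (4.08%) and 11, 10 and 9 by the second (63.3%), and 1, 2 and 2 were higher (26.5%), against 6, 8 and 9 by the first (62.2%) and 1 each by the second (14.3%). The mean Ct values of both genes, all under 25 cycles, were not the limit. The missing spread between mice and the disagreement of the housekeeping assays were.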
